A study of Rattus norvegicus with 10 samples.

Results

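The mevalonate and cholesterol synthesis pathway, the sterol regulatory element-binding proteins (SREBPs) and genes linked to them were followed in rat splenic M2 macrophages. Not every member is itself a gene that SREBPs control. The members were 33 genes listed by their known role, and 29 of them were among the 9003 genes of the expression table. Scd, Elovl6, Fads1 and Fads2 were not analysed here. The 29 genes were 19 enzymes of sterol synthesis, 5 genes of the SREBP factors and their control, 2 genes of sterol transport and receptor turnover, and 3 genes of fatty acid synthesis and desaturation.

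All cells were macrophages of the M2 gate, sorted by flow cytometry from the spleens of WKY/Ncrj rats. Control libraries came from rats under physiological conditions (n = 2). GN libraries came from rats with glomerulonephritis, induced by the monoclonal antibody TF78 against the glomerular basement membrane, without stem cell treatment (n = 2). EV+ and EV- libraries came from rats with the same nephritis that had been given human adipose-derived mesenchymal stem cells (ASCs) labelled with the membrane dye DiD. EV+ macrophages carried the dye and so had taken up membrane of the administered cells, among it extracellular vesicles (n = 3), and EV- macrophages did not carry it (n = 3). EV+ and EV- cells therefore shared nephritis and ASC treatment and differed by the sort on dye, whereas either of them differed from GN also by the ASC treatment. The methods call the libraries biological replicates. Whether an EV+ and an EV- library of the same number came from 1 animal, or whether animals were pooled, is not given in the sources used here.

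Cells make cholesterol from acetyl-CoA through mevalonate, isoprenoid diphosphates, squalene and lanosterol. When sterol in the endoplasmic reticulum is low, the escort protein Scap carries the precursors of the transcription factors Srebf1 and Srebf2 to the Golgi, where they are cut and released to the nucleus. When sterol is plentiful, Insig1 and Insig2 hold Scap back. The released factors bind sterol regulatory elements, usually beside sites of the general factor NF-Y, so that the genes of the pathway tend to be transcribed together. In macrophages the pathway is balanced against uptake of lipoproteins and dead cells and against export through the liver X receptors.

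The promoters of 6 members are shown: that of Srebf2 and those of the 5 genes with an entry in the reference table that followed Srebf2 most closely between libraries of the same group, as described further on. The sequences are RefSeq's, on the rat assembly GRCr8, and each runs 5′ to 3′ on the gene's own strand over the 250 bases before the annotated start. The capitals mark the NF-Y box CCAAT, or ATTGG where it lies on the opposite strand.
Srebf2, chr7:115543057-115543306, plus strand: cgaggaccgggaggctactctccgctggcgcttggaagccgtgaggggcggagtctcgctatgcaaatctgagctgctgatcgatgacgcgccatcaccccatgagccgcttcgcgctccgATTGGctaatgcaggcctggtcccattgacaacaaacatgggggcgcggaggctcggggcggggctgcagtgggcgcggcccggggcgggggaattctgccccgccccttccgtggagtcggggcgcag
Insig1, chr4:8057770-8058019, minus strand: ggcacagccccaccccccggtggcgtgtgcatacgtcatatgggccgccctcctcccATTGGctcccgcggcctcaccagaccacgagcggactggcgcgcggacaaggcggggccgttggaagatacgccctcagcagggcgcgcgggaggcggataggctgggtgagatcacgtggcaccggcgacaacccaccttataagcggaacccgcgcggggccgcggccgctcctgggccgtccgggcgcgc
Idi1, chr17:66547525-66547774, minus strand: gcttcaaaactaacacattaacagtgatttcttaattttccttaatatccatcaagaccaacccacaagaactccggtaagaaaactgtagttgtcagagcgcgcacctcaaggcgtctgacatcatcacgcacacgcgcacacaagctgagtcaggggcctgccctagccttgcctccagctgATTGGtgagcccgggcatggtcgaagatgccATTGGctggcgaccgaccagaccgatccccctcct
Cyp51, chr4:30991443-30991692, plus strand: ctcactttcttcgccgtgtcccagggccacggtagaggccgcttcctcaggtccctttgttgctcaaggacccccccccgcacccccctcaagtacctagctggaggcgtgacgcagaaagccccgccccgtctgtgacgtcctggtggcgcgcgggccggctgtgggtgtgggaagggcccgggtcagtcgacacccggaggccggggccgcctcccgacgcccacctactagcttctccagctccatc
Fdps, chr2:176804817-176805066, minus strand: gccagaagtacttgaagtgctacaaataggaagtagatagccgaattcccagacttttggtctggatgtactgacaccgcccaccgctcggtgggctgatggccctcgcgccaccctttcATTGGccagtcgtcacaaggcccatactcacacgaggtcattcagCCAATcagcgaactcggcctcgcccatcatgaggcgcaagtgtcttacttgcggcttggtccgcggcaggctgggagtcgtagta
Msmo1, chr16:29746863-29747112, plus strand: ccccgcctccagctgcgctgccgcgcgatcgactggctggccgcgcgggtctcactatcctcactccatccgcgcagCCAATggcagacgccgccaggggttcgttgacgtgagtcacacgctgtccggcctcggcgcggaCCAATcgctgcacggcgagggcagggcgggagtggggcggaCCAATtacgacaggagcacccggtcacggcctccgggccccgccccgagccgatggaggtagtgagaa
Srebf2 and Insig1 held 1 such box each, Idi1 and Fdps held 2 each, Msmo1 held 3, and Cyp51 held 0. Of the 29 members, 23 had a promoter in the reference table, and 19 of these 23 (82.6%) held CCAAT on either strand, against 37% of the 6970 genes of the expression table with a promoter there and 34% of all 33469 promoters. The GC box GGGCGG lay in 18 of the 23 (78.3%), against 60.9% of the 6970 genes. The E-box CACGTG, which reads the same on both strands, lay in 3 of the 23 (13%), against 8.75%. The sterol regulatory element written as TCACNCCAC lay on neither strand in any of the 23 windows, and in 0.976% of the 6970 genes. These are matches of letters in a fixed window and not measured binding.

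The 10 libraries held between 19270515 and 26617093 reads on genes. Values are CPM, which are read counts scaled to a common library size, here by the trimmed mean of M-values (TMM), and they are not corrected for gene length, so that levels are compared between groups and not between genes. The macrophage genes Csf1r, Lyz2 and Adgre1 were abundant in every library, with Adgre1 between 1025 and 1491 CPM. The M2 markers Cd163 and Mrc1 were at or near 0, with 1.81 CPM as the maximum of each, and the complement genes C1qa, C1qb and C1qc did not exceed 11.2 CPM. The summed level of 19 natural killer and T cell markers was 1203 CPM in EV- 1. It was between 233 and 392 CPM in the other libraries, where Cd8a made up most of it. Cd8a was between 199 and 333 CPM in all libraries, and Cd3e at no more than 2.09 CPM in any. The mean log2(CPM + 1) of the 19 markers was 4.53, 2.62 and 2.11 in EV- 1, 2 and 3. It was between 1.44 and 1.87 in the control, GN and EV+ libraries. Prf1 was at 335, 51.4 and 24.5 CPM in EV-, and at no more than 18.4 CPM in control, GN and EV+. Both measures were thus higher in every EV- library than in the other groups. In bulk libraries, fewer cells of a type and less RNA per cell cannot be told apart.

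No member passed the test in any comparison. By limma's test with Benjamini-Hochberg adjustment over all 9003 genes, 0 of the 29 members had an adjusted p under 0.1 in the 6 pairwise comparisons and in the test among the 4 groups. Of all genes, 1.75% were called between GN and control, 3.63% between EV+ and control, 2.84% between EV- and control, 0.122% between EV+ and GN, 0.378% between EV- and GN, 0.0222% between EV+ and EV-, and 2.57% among the 4 groups. The share between EV+ and EV- stood for 2 genes, where edgeR's likelihood-ratio test called 57, DESeq2 called 34 and limma with a replicate block on the 6 EV libraries, chosen after seeing the data, called 49, none of them a member. On the recovered reads, edgeR's quasi-likelihood test and voom likewise called 0 members, while edgeR's likelihood-ratio test and DESeq2 called 1 member, Scap, and only between GN and control. At an unadjusted p under 0.05, limma gave 4 members between GN and control (10.4% of all genes), 2 between EV+ and control (15%), 3 between EV- and control (13.1%), 3 between EV+ and GN (7.13%), 5 between EV- and GN (7.85%) and 0 between EV+ and EV- (4.57%). Beside these shares, a count of 0 among 29 genes is not a result about the members.

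**Figure D1:**
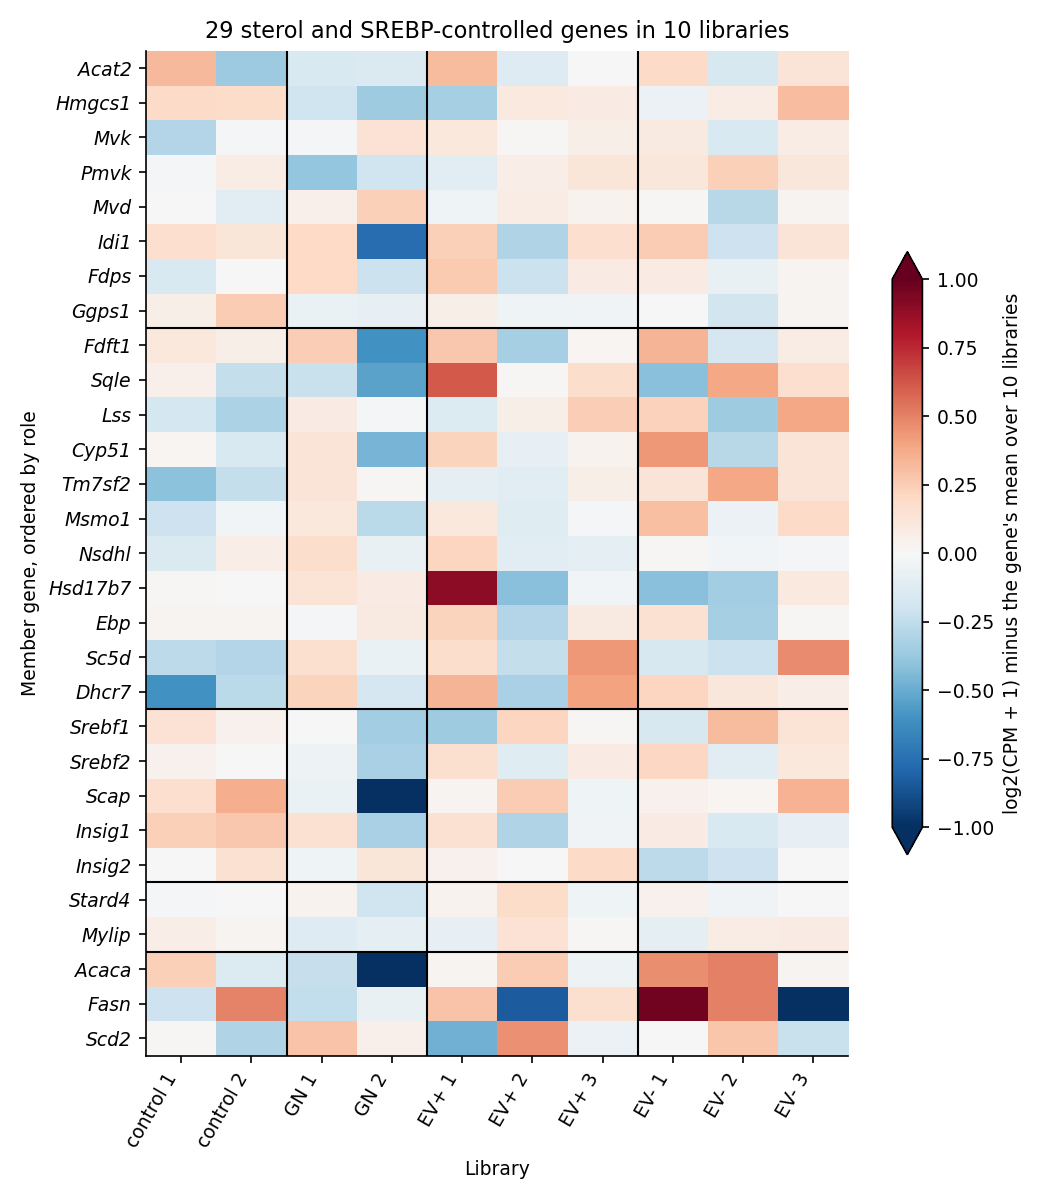
Level of each of the 29 members (rows, ordered by role and separated by lines) in each of the 10 libraries (columns, groups separated by lines), as log2(CPM + 1) minus the mean of the gene over all 10 libraries; the colours run from -1 to 1. No group stands out as a block, and GN 2 holds the darkest cells for Idi1, Fdft1, Scap and Acaca.

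EV+ and EV- macrophages lay close together for most members. Between EV+ and EV-, the median log2 difference over the 29 members was -0.01, beside -0.01 over all genes, with 14 members higher and 15 lower in EV+. For 24 of the 29 members (82.8%, beside 74.7% of all genes) the 95% interval of the difference lay within 1.5-fold in both directions, on the scale of log2(CPM + 1). The 5 members whose interval was wider were Sqle, Tm7sf2, Hsd17b7, Acaca and Fasn, 4 of them at a few CPM or less in every library. The EV+ and EV- libraries overlapped for 28 members. Tm7sf2, a sterol reductase of the late pathway, was the exception, at 2.07, 2.02 and 2.41 CPM in EV+ and 2.58, 3.26 and 2.57 CPM in EV-, a log2 difference of -0.26 (95% interval -0.69 to 0.17), where 8.91% of all genes did not overlap. The test did not separate the sorted groups for any member. The 95% intervals are for each gene alone, without the adjustment over all genes that the test used. They give the range of differences compatible with each gene's values, and not the size of difference that the adjusted test could have missed.

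**Figure D2:**
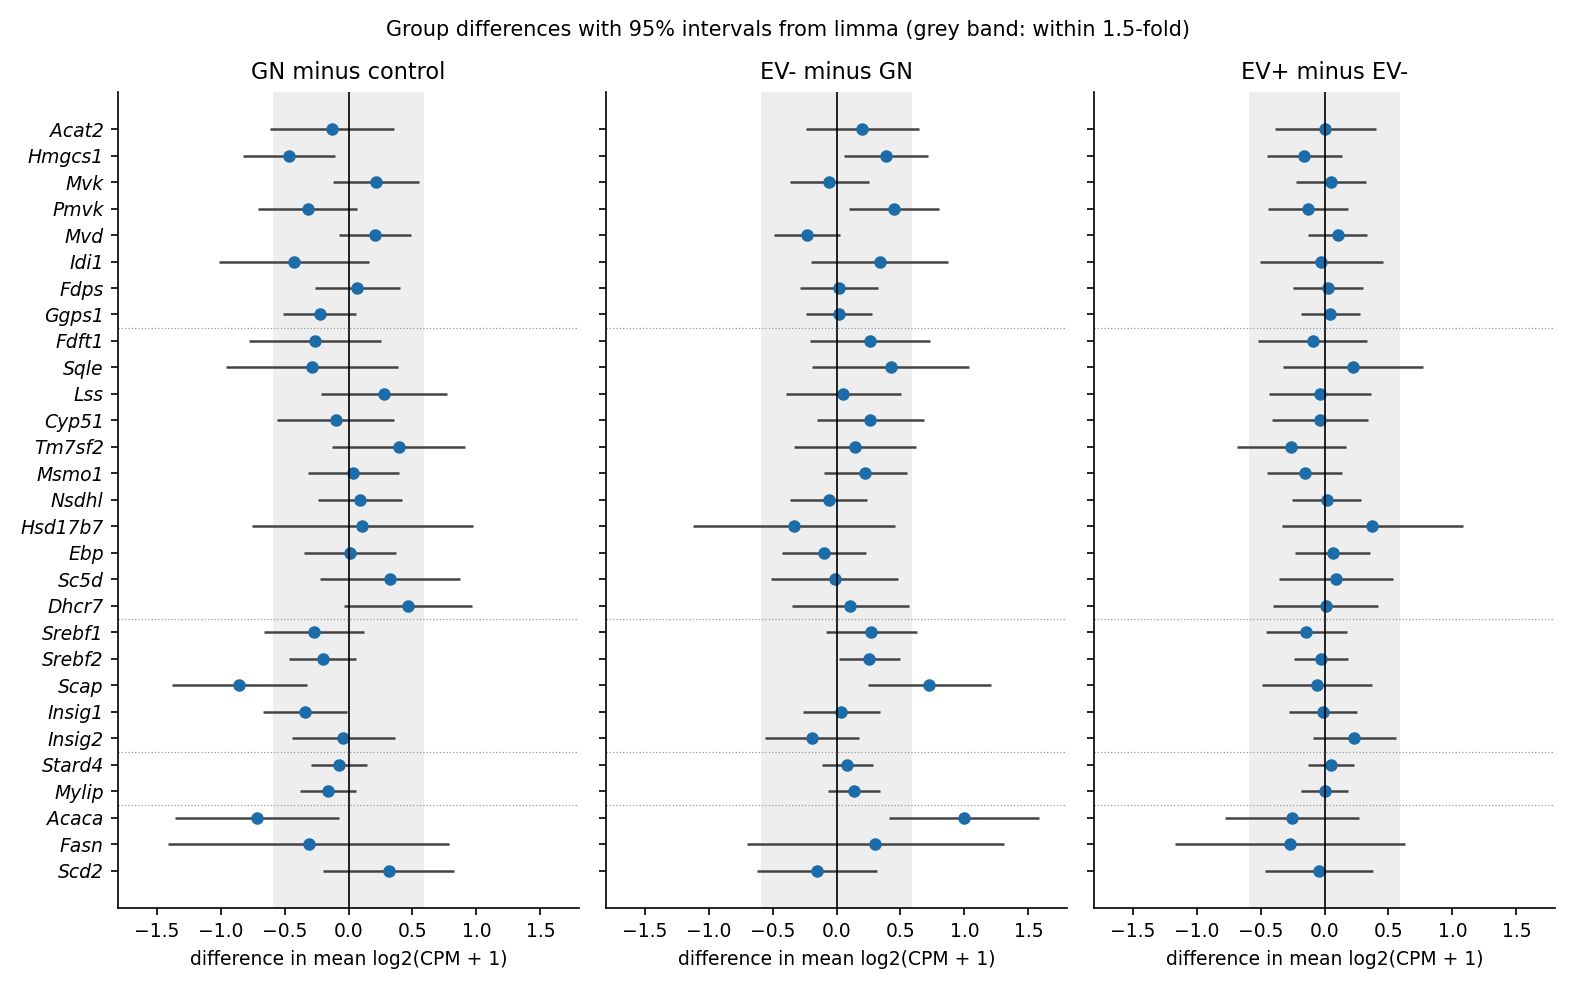
Difference in mean log2(CPM + 1) for each member (points) with its 95% interval from limma (lines) for GN minus control, EV- minus GN and EV+ minus EV-; the grey band marks differences within 1.5-fold. Intervals for EV+ minus EV- lie inside the band for 24 of 29 members, and Scap and Acaca lie farthest from 0 in the other 2 panels.

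Srebf2, the SREBP that mainly drives sterol synthesis, stood at 278 and 269 CPM in control, 261 and 216 CPM in GN, 303, 248 and 287 CPM in EV+, and 313, 251 and 291 CPM in EV-. The GN libraries were the lower ones against control, and they overlapped both ASC groups. The log2 difference was -0.20 for GN against control (adjusted p = 0.631, limma), 0.23 for EV+ against GN (adjusted p = 0.719) and 0.26 for EV- against GN (adjusted p = 0.584). These 3 values were -0.07, 0.09 and 0.12 without GN 2, and -0.34, 0.36 and 0.39 without GN 1.

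Srebf1, the SREBP more closely tied to fatty acid synthesis, stood at 81.8 and 76.3 CPM in control, 73.7 and 58.0 CPM in GN, 57.4, 86.0 and 74.5 CPM in EV+, and 66.0, 92.3 and 81.4 CPM in EV-. Its range within each ASC group was wider than that over the control and GN libraries together. Its largest difference was 0.27 on the log2 scale, for EV- against GN (adjusted p = 0.752), and -0.27 for GN against control (adjusted p = 0.679), which became 0.10 and -0.10 without GN 2 and 0.44 and -0.44 without GN 1. In GRCr8 the gene overlaps Rai1, and the library kit did not mark strand, so reads of the overlap cannot be assigned by strand.

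Scap was the member with the lowest adjusted p among the 4 groups (0.247). It stood at 39.9 and 45.8 CPM in control, 33.7 and 15.9 CPM in GN, 36.1, 42.4 and 34.4 CPM in EV+, and 36.6, 35.8 and 45.3 CPM in EV-. Both GN libraries were below all others, but GN 2, with 422 reads, lay far below GN 1. The log2 difference was -0.85 ± 0.25 (SE) for GN against control (adjusted p = 0.155), 0.67 ± 0.22 for EV+ against GN (adjusted p = 0.536) and 0.72 ± 0.22 for EV- against GN (adjusted p = 0.347). Between GN and control its adjusted p was 0.0933 by edgeR's likelihood-ratio test and 0.0720 by DESeq2. Without GN 2 the difference from control was -0.33 (adjusted p = 0.794), and without GN 1, which leaves GN 2 alone and takes it to vary like the other groups, it was -1.37 (adjusted p = 0.0119). The size of this difference therefore rested on 1 library.

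Insig1, which retains Scap and is itself a known SREBP target, stood at 193 and 197 CPM in control and was lower in every other library: 182 and 130 CPM in GN, 182, 133 and 160 CPM in EV+, and 173, 147 and 155 CPM in EV-. The control libraries did not overlap any of the other 3 groups. Of all genes, 43.9% did not overlap between GN and control, 30.5% between EV+ and control and 29.1% between EV- and control. The log2 difference from control was -0.34 for GN (adjusted p = 0.463), -0.31 for EV+ (adjusted p = 0.312) and -0.30 for EV- (adjusted p = 0.380). These 3 comparisons share the same 2 control libraries and are not independent. The difference of GN from control was -0.10 without GN 2 and -0.58 without GN 1, and that of EV+ was -0.19 without EV+ 2 and -0.42 without EV+ 1. Insig2, its relative, stood at 8.47 and 9.49 CPM in control, 8.16 and 9.27 CPM in GN, 8.75, 8.42 and 9.81 CPM in EV+, and 6.90, 7.19 and 8.44 CPM in EV-, and the lowest adjusted p of its pairwise comparisons was 0.630, for EV- against control.

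**Figure D3:**
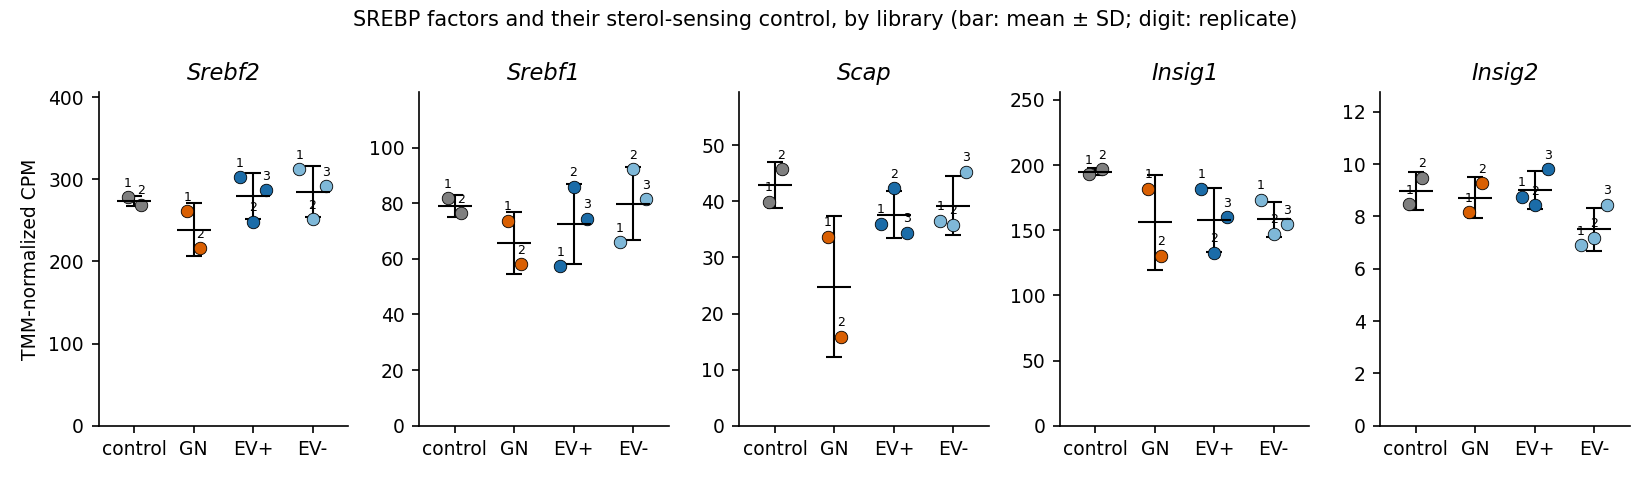
CPM of Srebf2, Srebf1, Scap, Insig1 and Insig2 in each library (points, with the replicate number), with the mean and SD of each group (bars); each axis starts at 0. GN 2 is low for Scap at 15.9 CPM, and both control libraries lie above all others for Insig1.

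Of the 8 enzymes from acetyl-CoA to the isoprenoid diphosphates, the medians of the log2 differences lay between -0.18 for GN against control and 0.14 for EV+ against GN. Hmgcs1, which makes the precursor of mevalonate, stood at 32.7 and 32.5 CPM in control, 24.7 and 22.1 CPM in GN, 22.5, 30.5 and 30.2 CPM in EV+, and 27.3, 30.1 and 35.4 CPM in EV-. GN lay below control without overlap, at a log2 difference of -0.47 (95% interval -0.82 to -0.11, adjusted p = 0.304), and below EV- without overlap, at 0.38 for EV- against GN (adjusted p = 0.547). Pmvk, the second kinase of the mevalonate branch, was at 6.59 and 7.65 CPM in GN and between 8.24 and 10.7 CPM in all other libraries (0.45 for EV- against GN, adjusted p = 0.481). Mvk, the first kinase, and Mvd, the decarboxylase after Pmvk, went the other way in their means, with log2 differences of 0.21 and 0.21 for GN against control. Acat2, the cytosolic thiolase that starts the pathway, ranged from 10.8 to 18.0 CPM, and the isomerase Idi1 from 8.55 to 18.3 CPM. The farnesyl diphosphate synthase Fdps ranged from 63.1 to 88.5 CPM and the geranylgeranyl diphosphate synthase Ggps1 from 24.4 to 33.3 CPM. Acat2, Fdps, Idi1 and, of the later enzymes, Nsdhl have listed copies or pseudogenes in GRCr8, and Idi1 overlaps Wdr37. Whether this bore on their counts was not tested.

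Of the 11 enzymes from squalene to cholesterol, 8 had a higher mean log2 level in GN than in control, 9 in EV+ and 8 in EV-, and none passed the test. Of all 9003 genes, 4488, 4494 and 4623 were higher in these comparisons, which share the same control libraries. Dhcr7, which reduces 7-dehydrocholesterol in the last step, stood at 9.55 and 12.3 CPM in control, 17.7 and 13.3 CPM in GN, 19.3, 11.8 and 20.2 CPM in EV+, and 17.6, 16.4 and 15.8 CPM in EV-. Apart from EV+ 2, every library of the 3 nephritis groups was above both controls. The log2 difference from control was 0.46 for GN (adjusted p = 0.532), 0.58 for EV+ (adjusted p = 0.217) and 0.57 for EV- (adjusted p = 0.253). Without EV+ 2 it passed the threshold for EV+ (0.81, adjusted p = 0.0386) and, through the smaller shared spread, for EV- (adjusted p = 0.0981). Tm7sf2 stood at 1.46 and 1.77 CPM in control and between 2.02 and 3.26 CPM elsewhere (0.54 for EV- against control, adjusted p = 0.313), from 38 to 66 reads a library. Sqle, the squalene epoxidase, stood at 1.93 and 1.36 CPM in GN and at 4.22, 2.44 and 2.86 CPM in EV+ (0.64, adjusted p = 0.686), from 32 to 108 reads.

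The other enzymes of this branch are given by their range over the 10 libraries. The squalene synthase Fdft1 ranged from 33.8 to 65.9 CPM, the lanosterol synthase Lss from 8.92 to 15.6 CPM, and the lanosterol demethylase Cyp51 from 33.0 to 62.2 CPM. Msmo1 and Nsdhl, which remove methyl groups from the sterol ring, ranged from 21.7 to 32.7 CPM and from 22.6 to 29.3 CPM. The isomerase Ebp ranged from 55.1 to 81.5 CPM and the desaturase Sc5d from 8.91 to 15.9 CPM. Hsd17b7 was near the limit of detection, from 0 reads in EV+ 2 and EV- 1 to 38 reads in EV+ 1. For a library with 0 reads, a limit of 3 reads allows up to 0.126 CPM in EV+ 2 and 0.146 CPM in EV- 1, by counting error only.

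Sterol transport and receptor turnover varied little. Stard4, which carries cholesterol between membranes, ranged from 104 to 136 CPM, and Mylip, a ubiquitin ligase that promotes the breakdown of lipoprotein receptors, from 79.5 to 95.9 CPM. Their log2 differences lay between -0.16 and 0.14 in all 6 comparisons.

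The 3 genes of the fatty acid branch varied widely between libraries. Acaca, the acetyl-CoA carboxylase that makes malonyl-CoA, stood at 4.58 and 3.30 CPM in control, 3.04 and 1.21 CPM in GN, 3.83, 4.63 and 3.57 CPM in EV+, and 5.54, 5.71 and 3.81 CPM in EV-. Both GN libraries were below all others, and GN 2 rested on 32 reads. In GRCr8 Acaca overlaps C10h17orf78, LOC134480840 and Rpl17-ps8, and whether this bore on its counts was not tested. The log2 difference was -0.72 for GN against control (adjusted p = 0.402), 0.74 for EV+ against GN (adjusted p = 0.621) and 0.997 for EV- against GN (95% interval 0.41 to 1.58, adjusted p = 0.290). These 3 values were -0.28, 0.31 and 0.56 without GN 2, and -1.15, 1.18 and 1.43 without GN 1, so that their size rested on 1 library. Fasn, the fatty acid synthase, had a wider spread between libraries of 1 group than 99.5% of all genes, with 18.0, 12.8 and 3.70 CPM in EV- and 10.8, 4.46 and 9.86 CPM in EV+. Scd2, a stearoyl-CoA desaturase with close relatives in the genome, ranged from 28.7 to 55.8 CPM, with both of these extremes among the EV+ libraries.

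Against GN, more members had a higher than a lower mean in both ASC groups, and none passed the test. EV+ against GN had 23 members higher and 6 lower with a median of 0.08 on the log2 scale, and EV- against GN had 21 higher and 8 lower with a median of 0.13, beside -0.01 and 0.00 over all genes. GN against control had 12 higher and 17 lower with a median of -0.10, beside 0.00 over all genes. The 3 comparisons share the 2 GN libraries. Between libraries of 1 group, the median over the members varied with a pooled SD of 0.0999. Without GN 2 the medians were 0.04 for GN against control, 0.01 for EV+ against GN and 0.00 for EV- against GN. The groups did not overlap for 16 members between GN and control (43.9% of all genes), 7 between EV+ and GN (23%) and 7 between EV- and GN (25.4%), and EV+ was the higher group for all 7 (11.2% of all genes) and EV- for 6 (12.6%). Against control, 6 members did not overlap for EV+ (30.5% of all genes) and 7 for EV- (29.1%).

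Variation between libraries of 1 group was larger for the members than for most genes, with a median within-group SD of 0.21 on the log2 scale beside 0.16 over all genes. After the group mean was taken from each library, the median correlation between pairs of the 19 sterol enzymes was 0.28. It was 0.17 between pairs of all 29 members, which include these enzymes, and 0.005 between these enzymes and all 9003 genes. The summed level of the 19 enzymes was 479 and 485 CPM in control, 519 and 436 CPM in GN, 550, 443 and 516 CPM in EV+, and 547.5, 441 and 526 CPM in EV-. GN 2, EV+ 2 and EV- 2 were the lowest of their groups, and the gap inside each of these 3 groups exceeded the gaps between group means. EV+ and EV- libraries of the same number may come from the same animals, so their common order may not be separate instances. EV+ 2 was the lowest EV+ library for 15 of the 19 enzymes, where 36.4% of all genes were lowest in it. EV- 2 was the lowest EV- library for 13 of 19 (36% of all genes), and GN 2 was the lower GN library for 14 of 19 (51% of all genes).

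By the same deviations from the group mean, 6 members followed Srebf2 with a correlation above 0.8 over the 10 libraries, a level that 3.15% of the other 9002 genes reached. These were Fdft1 (r = 0.95), Cyp51 (r = 0.94), Idi1 (r = 0.93), Insig1 (r = 0.91), Msmo1 (r = 0.89) and Fdps (r = 0.86), and Fdft1 ranked as number 10 among the 9002 genes. Without the 2 GN libraries, the r of these 6 members lay between 0.79 for Fdps and 0.98 for Idi1, and that of Ebp was 0.99 in place of 0.76. Idi1, for example, was at 17.2 and 16.6 CPM in control, 17.6 and 8.55 CPM in GN, 18.0, 12.1 and 17.2 CPM in EV+, and 18.3, 13.0 and 16.7 CPM in EV-, in each group the order of the libraries that Srebf2 had. Fdft1 was at 56.0 and 54.1 CPM in control, 61.7 and 33.8 CPM in GN, 62.9, 41.1 and 52.8 CPM in EV+, and 65.9, 46.1 and 54.8 CPM in EV-. Cyp51 was at 46.4 and 41.2 CPM in control, 50.1 and 33.0 CPM in GN, 53.8, 43.3 and 47.1 CPM in EV+, and 62.2, 37.7 and 50.2 CPM in EV-. All 3 of these genes were lowest in the libraries numbered 2 of the GN, EV+ and EV- groups. Msmo1 was at 22.65 and 25.8 CPM in control, 28.4 and 21.7 CPM in GN, 28.4, 24.2 and 25.9 CPM in EV+, and 32.7, 25.2 and 30.2 CPM in EV-. Fdps was at 66.2 and 73.5 CPM in control, 84.7 and 63.3 CPM in GN, 88.5, 63.1 and 77.8 CPM in EV+, and 77.8, 70.0 and 75.1 CPM in EV-. In control, where Srebf2 was nearly equal in the libraries, Idi1, Fdft1 and Cyp51 were higher in control 1, and Msmo1, Fdps and Insig1 in control 2. Of the promoters of these 6 genes, those of Insig1, Idi1, Fdps and Msmo1 held the NF-Y box, that of Cyp51 did not, and Fdft1 is not in the reference table.

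The other members followed Srebf2 less closely or not at all. Of the 19 sterol enzymes, 16 had an r above 0, among them Ebp (r = 0.76), Dhcr7 (r = 0.68), Nsdhl (r = 0.60), Acat2 (r = 0.57), Sc5d (r = 0.53), Ggps1 (r = 0.52), Hsd17b7 (r = 0.50) and Lss (r = 0.48). Pmvk (r = -0.75) and Mylip (r = -0.73) ran against Srebf2 within groups, as did Scd2 (r = -0.52) and Srebf1 (r = -0.47), and Hmgcs1 (r = -0.25), Tm7sf2 (r = -0.22) and Insig2 (r = -0.10) were weakly negative. Between 0.03 for Sqle and 0.38 for Scap lay also Mvd, Stard4, Fasn, Acaca and Mvk. Without the GN libraries, r was -0.89 for Srebf1, -0.81 for Mylip, -0.77 for Scd2 and -0.65 for Pmvk. It was then -0.46 for Hmgcs1, -0.45 for Tm7sf2 and 0.15 for Insig2. Scap, Acaca, Stard4 and Sqle turned negative, at -0.25, -0.34, -0.30 and -0.14. Mvk, Mvd and Fasn stayed positive, at 0.57, 0.47 and 0.30. These correlations are descriptions, with no test. The points share libraries and normalization, same-numbered EV+ and EV- libraries may share animals, the 2 libraries of control and of GN mirror each other once their mean is removed, and the 6 genes were singled out after their values were seen.

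**Figure D4:**
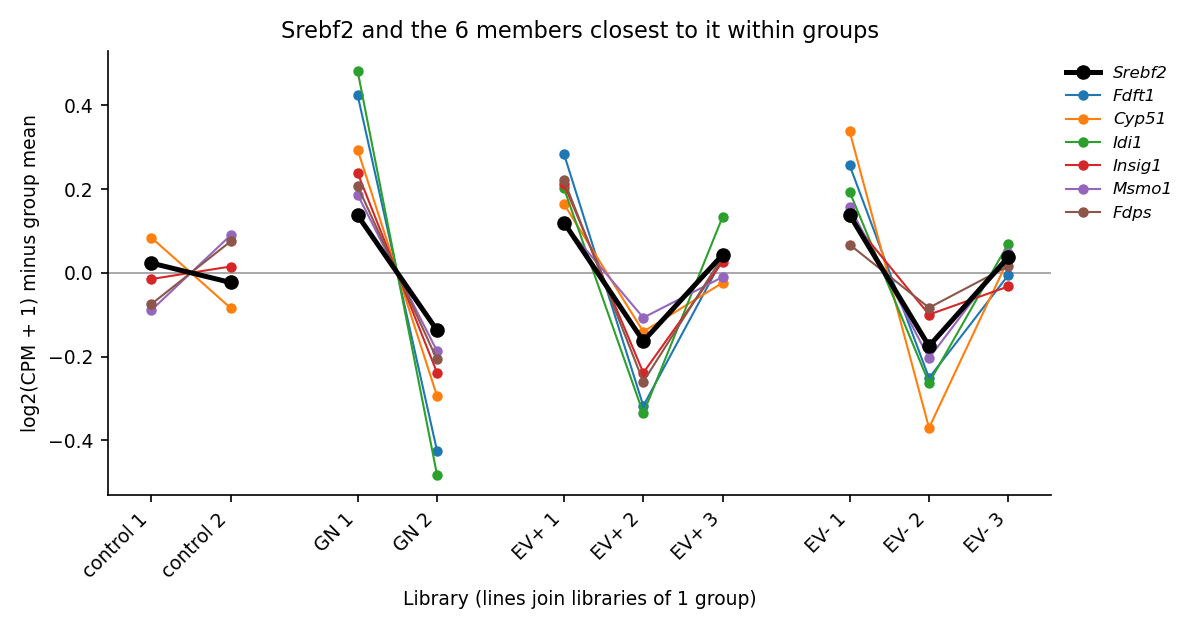
Deviation of log2(CPM + 1) from the group mean in each library (lines join the libraries of 1 group) for Srebf2 (black) and the 6 members with r above 0.8 to it (colours). All 7 genes are lower in GN 2 than in GN 1, and lowest in EV+ 2 and EV- 2 of their groups, while the control libraries show no common order.

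Some other measures moved with this order of libraries and others did not, and their part in it was not tested. The median deviation of 81 ribosomal protein genes was 0.19, -0.26 and 0.09 in EV+ 1, 2 and 3 and 0.05, -0.11 and 0.07 in EV- 1, 2 and 3, lowest in the same libraries as the 6 genes, but -0.03 and 0.03 in GN 1 and 2, the opposite of their order. The median deviation of the 20 proliferation genes was -0.06, 0.01 and 0.00 in EV+ and 0.29, -0.13 and -0.10 in EV-. The natural killer and T cell markers were highest in EV+ 1 and EV- 1 of their groups and lower in GN 1 than in GN 2. Depth did not follow the order in GN, where GN 1 had 25141257 reads and GN 2 had 26435903. EV+ 1, 2 and 3 had 25955835, 23256708 and 22591474 reads, and EV- 1, 2 and 3 had 20416394, 19270515 and 25524439. The fewest reads of these groups were thus in EV+ 3 and EV- 2.

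The genes around the pathway held a few calls. Of 16 genes of SREBP processing and degradation and 16 of the isoprenoid branches (prenylation of proteins, dolichol and ubiquinone), 0 were called in any pairwise comparison, with between 1 and 4 and between 0 and 2 genes at an unadjusted p under 0.05. Of 14 genes of liver X receptor signalling and sterol export, 2 were called lower in EV+ than in control (1.81% of all genes), 1 lower in EV- than in control (1.56%) and 1 lower in EV- than in GN (0.322%). Ch25h, which makes 25-hydroxycholesterol, a sterol that blocks SREBP release, was at 2.35 and 2.39 CPM in control, 1.10 and 1.43 CPM in GN, 0.938, 0.631 and 0.535 CPM in EV+, and 1.12, 0.561 and 0.584 CPM in EV-. It fell by 0.99 on the log2 scale in EV+ (adjusted p = 0.0712) and by 0.96 in EV- (adjusted p = 0.0964) against control. Both calls were lost under a replicate block (adjusted p = 0.125 and 0.165, limma). By edgeR's quasi-likelihood test on reads the log2 differences were -1.75 and -1.65 and the adjusted p values 0.161 and 0.212. Arl4c, a liver X receptor target, was at 33.9, 39.4 and 34.2 CPM in EV+ against 48.3 and 46.9 CPM in control (log2 difference -0.40, adjusted p = 0.0674, and 0.113 with the block). Nr1h3, the liver X receptor alpha itself, was at 77.3 and 81.8 CPM in GN and 55.2, 59.8 and 47.8 CPM in EV- (-0.55, adjusted p = 0.0609).

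Of 17 genes of sterol uptake, lysosomal release and esterification, the scavenger receptor Cd36 fell in GN against control, from 205 and 235 CPM to 156 and 176 CPM (-0.40, adjusted p = 0.0743), and the lysosomal acid lipase Lipa rose in EV+ against control, from 1997 and 2128 CPM to 2436, 2437 and 2456 CPM (0.25, adjusted p = 0.0923). Of 26 genes of NADPH, acetyl-CoA and lipid supply, the lipid droplet protein Plin2 fell from 1732 and 1712 CPM in control to 1383 and 1294 CPM in GN (-0.36, adjusted p = 0.0417) and to 1516, 1406 and 1348 CPM in EV+ (-0.28, adjusted p = 0.0665). Hsd17b12, a reductase of fatty acid elongation, was at 8.20 and 9.20 CPM in control, 14.0, 14.9 and 16.3 CPM in EV+ (0.73, adjusted p = 0.0180), and 13.7, 12.7 and 13.3 CPM in EV- (0.55, adjusted p = 0.0875, and 0.154 with the block). Of the 20 proliferation genes 0 were called, with 8 at an unadjusted p under 0.05 between EV+ and EV-, all lower in EV+ (2.48% of all genes). Their summed level was 478 CPM in EV- 1 and between 399.6 and 436 CPM in the other libraries. The summed natural killer and T cell markers were also highest in EV- 1. Of these 19 markers, 15 were lower in EV+ than in EV- at an unadjusted p under 0.05 (limma), and their median log2 difference was -1.59. By median deviation from the group mean, both lists were highest in the same library in EV- and GN, but not in EV+ or control. In EV+ 1, 2 and 3 it was -0.06, 0.01 and 0.00 for proliferation and 0.25, -0.19 and -0.13 for these markers. The part of natural killer and T cells in the difference was not tested. None of these genes was called between EV+ and GN or between EV+ and EV-. The 10 calls named here kept their direction under all 20 alternatives run on each, and each was lost without at least 1 library. That of Hsd17b12 in EV+ was lost only without control 1 (log2 difference 0.66), and that of Lipa under 9 of the omissions. Without limma's intensity trend, the calls of Cd36, Lipa, Nr1h3 and both of Plin2 were lost (adjusted p from 0.197 to 0.254, limma). Of the 20 alternatives, 14 lost the call of Ch25h in EV-, and 11 each those of Lipa and of Hsd17b12 in EV-. A threshold of 0.05, not among the 20, kept only Plin2 in GN and Hsd17b12 in EV+.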

How the data were processed

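RNA of sorted macrophages had been made into SMART-Seq v4 and Nextera XT libraries and sequenced in pairs. The authors aligned the reads to rn6 with STAR 2.5.3, counted RefSeq genes with HTSeq 0.6.0 (intersection-strict; no strand setting is given), removed genes under 1 CPM in every sample and applied TMM normalization in edgeR. The deposited values are this normalized signal, in CPM. Divided by the CPM of 1 read in its library, 100% of values came out whole (tolerance 0.01), and depth is given from the reads so recovered. The smallest row maximum was 1.01 CPM. The symbols of 18 rows had been turned into dates and were not used.

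Groups came from the labels. limma 3.58.1 (R 4.3.3) was fitted to log2(value + 1) with an intensity trend on all 10 libraries and 4 groups (6 residual degrees of freedom), and genes were called at an adjusted p under 0.1 over 9003 genes. A fold on this scale understates that of low genes. edgeR 4.0.16, DESeq2 1.42.0 and voom on the recovered reads, RLE factors, a pseudocount of 0.1, no trend, a filter of 1 CPM in 2 libraries, a threshold of 0.05, fewer groups in the fit, a replicate block and leaving out each library were alternatives. The scripts were tested on simulated data. Residuals of EV+ and EV- libraries of the same number correlated at 0.203, 0.295 and 0.122 over all genes, so the number was taken to pair them in the block. Over the members these pairs gave 0.263, 0.171 and -0.201, while unlike pairs ran from -0.387 to 0.292. The pairing is a hint from the all-gene values and not stated by the labels, and the main fit did not use it. In the fit of all 10 libraries the block joined same-numbered libraries of all 4 groups, although no source links control or GN libraries to EV libraries. In each of the 45 pairs of libraries the reads differed by more than sampling noise (chi-square per degree of freedom of at least 10.3).

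The members and lists were chosen with earlier results of these data known, so no list is tested. Every member is given. Values in every library are given for Srebf1, Srebf2, Scap, Insig1 and Insig2 and for most other members whose differences are described, which were singled out after their values were seen. Genes of the 6 lists around the pathway are named where called. Promoters are RefSeq's on GRCr8; gene overlaps and copies are from the same assembly and not from rn6.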

Additional observations from a re-analysis of the deposited data

How the results depend on the processing

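Members called stayed at 0 under each alternative and comparison except for 1 called (Scap) between GN and control by edgeR's likelihood-ratio test and by DESeq2, and except when 1 library was left out. Leaving out 1 library in turn gave between 0 and 1 members called in each comparison other than EV+ against EV-, where it gave 0. The calls were Scap without GN 1 (adjusted p from 0.0119 to 0.0850 over its 3 comparisons, limma) and Dhcr7 without EV+ 2 (0.0386 and 0.0981). Leaving out 1 library moved the median over the members between -0.15 and 0.041 for GN against control, 0.0093 and 0.23 for EV+ against GN, and 0.0041 and 0.22 for EV- against GN, with GN 1 or GN 2 at each end.

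With the replicate number as a block, 0 members were called in each comparison and no call of a member changed; the medians were -0.10 for GN against control, 0.07 and 0.05 for EV+ and EV- against control, 0.07 and 0.12 for EV+ and EV- against GN, and -0.01 for EV+ against EV-. This block also joined control and GN libraries to the EV libraries of the same number, a link that no source gives. A block over the 6 EV libraries alone, chosen after seeing the data, also called 0 members. Of the 174 differences of members, 8 changed sign under the block: Insig2 to -0.066 and Pmvk to -0.011 for EV+ against control, Srebf1 to -0.021 and Fasn to 0.22 for EV- against control, Insig2 to -0.027, Lss to -0.10 and Sc5d to -0.11 for EV+ against GN, and Lss to -0.068 for EV- against GN. DESeq2 gave -0.00074 and RLE factors -0.0011 for Insig2 in EV+ against control, and RLE factors -0.00066 for Srebf1 in EV- against control.

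The sign of these log2 differences depended on which library was left out. For Insig2 it ranged from -0.12 to 0.042 in GN against control, -0.072 to 0.075 in EV+ against control and -0.041 to 0.12 in EV+ against GN. For Srebf1 it ranged from -0.27 to 0.018 in EV+ against control, -0.11 to 0.13 in EV- against control, -0.040 to 0.30 in EV+ against GN and -0.27 to 0.015 in EV+ against EV-. For Srebf2 it ranged from -0.036 to 0.11 in EV+ against control, -0.016 to 0.14 in EV- against control and -0.12 to 0.053 in EV+ against EV-. For Insig1 it ranged from -0.21 to 0.26 in EV+ against GN, -0.20 to 0.28 in EV- against GN and -0.12 to 0.11 in EV+ against EV-, and for Scap from -0.14 to 0.048 in EV+ against EV-. Without changing sign, GN against control moved by over 1.5 times for Dhcr7 (0.27 to 0.66), Mvk (0.079 to 0.35) and Mvd (0.11 to 0.30), beside the genes given above. The cause was not tested. Of 1086 values of 54 named pairs of gene and comparison, 969 kept direction and side of the threshold, 80 lost a call, all in genes around the pathway, 7 gained one and 30 changed sign.

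Over all genes, edgeR's likelihood-ratio test called 292 genes between GN and control (158 by limma), 516 and 444 for EV+ and EV- against control (327 and 256), 43 and 126 for EV+ and EV- against GN (11 and 34) and 616 among the groups (231), DESeq2 called 294, 540, 474, 41, 113 and 543, and limma with no trend called 60, 186, 94, 0, 6 and 93. The block called 30 and 53 genes for EV+ and EV- against GN and 5 between EV+ and EV-, and a fit of EV+ and control alone called 155. Leaving out 1 library gave from 34 to 214 for GN against control, 114 to 390 and 95 to 388 against control, 0 to 18 and 7 to 42 against GN, and 0 to 5 between EV+ and EV-. Hsd17b7, Sqle, Tm7sf2 and Acaca rested on at most 119 reads in a library, and counting error was not separated from the spread between libraries.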
